A study of Mus musculus with 170 samples.

Results

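CD4 naive T cells were 1 of the cell types sorted from mouse spleen, and the 3 libraries from old mice were compared with the 4 from young mice across all genes. The members were chosen by the library names, not by any measured value, and make up 7 of the 170 libraries in the series. The young mice were aged 2 months and the old mice 22 to 24 months, all with the genotype given as C57/Bl6 background, and no group carried a named mutation or received a named agent. Each library was made from cells pooled from 5 animals, sorted by flow cytometry and sequenced from the 3' ends of polyadenylated RNA. The sources used here do not give the gate that defined a naive cell. Of the other cell types, 7 CD8 naive libraries (4 young, 3 old) and 10 CD4 memory libraries (5 of each age) were used for comparison. They came from spleen, the same ages and the same background.

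CD4 T cells are the helper arm of adaptive immunity: through the T cell receptor they recognise peptides on class II histocompatibility molecules and direct B cells, macrophages and CD8 T cells. A naive T cell has left the thymus and has not yet met its antigen. It circulates between blood, spleen and lymph nodes in a resting state maintained by transcription factors such as Lef1, Tcf7, Foxp1 and Bach2, and after stimulation it gives rise to effector, follicular helper, regulatory or memory cells, each with its own transcription factors, receptors and cytokines. In aged mice the thymus has shrunk and the pool of naive T cells is known to decline.

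Levels are given as CPM, a gene's count scaled to the effective library size, with the SD over libraries (n = 4 young, n = 3 old). Values of single libraries are listed in the order of their replicate numbers. Before the comparisons between cell types, naive levels were scaled over the CD4 naive libraries alone. Levels of young CD4 memory libraries set beside them were scaled over both cell types. Fold changes are log2, old minus young, with their standard error, and adjusted p-values come from the quasi-likelihood test of edgeR, adjusted over all genes tested by the Benjamini-Hochberg method. A gene is said to have risen or fallen where the adjusted p was below 0.05. Positions refer to GRCm38 with GENCODE M21, in which the genes named are protein coding apart from T cell receptor segments. Bcl6, Ccl5, Ccr7, Cd44, Cd79a, Foxp3, Itgae, S100a11 and Tnfrsf18 lie outside the rules for named genes and were chosen after their values were seen. Because the libraries hold pooled sorted cells, a higher level of a transcript can come from more cells that hold it or from more of it per cell, and these cannot be told apart.

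The first question was whether the libraries matched their label. Cd4, the co-receptor that gives the lineage its name (chr 6, 124864692 to 124888221), was at 274, 283, 286 and 301 CPM in the young libraries and 289, 271 and 393 CPM in the old. The ages overlapped, and the difference did not pass (log2 fold change 0.15 ± 0.18, adjusted p = 0.689). Cd8a, the co-receptor of the other lineage, was at 12.04, 7.08, 9.33 and 6.31 CPM in young libraries and 7.77, 9.79 and 14.03 CPM in old ones, also overlapping. Of 22 T cell identity genes 1 rose (4.55%, against 6.93% of all genes tested) and 2 fell (9.09%, against 2.51%). The median log2 fold change was 0.12 against 0.00 over all genes tested. The 1 that rose was Zap70, given below. The 2 that fell are not reported here by name, and 1 fell without old replicate 3 or without young replicate 2, 3 or 4. Trac, the constant segment of the T cell receptor alpha chain, was at 8366 ± 4173 CPM in young libraries and 7620.0 ± 4449 CPM in old ones. Cd3g and Cd3d, chains of the CD3 signalling complex, were at 1709 ± 197 CPM in young libraries and 1871 ± 386 CPM in old ones and at 1122 ± 55.8 CPM in young libraries and 1233 ± 551 CPM in old ones. All 3 overlapped between ages. Of 34 T cell receptor segments tested edgeR called 0, with 3 at an unadjusted p below 0.05 and 1 called by DESeq2.

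Lef1, a transcription factor that marks naive T cells (chr 3, 131110471 to 131224356), separated the ages. The young libraries had 1218, 1379.6, 1456 and 1375 CPM and the old libraries 510.2, 219 and 118 CPM. Every old library was below every young library, and Lef1 fell by 2.26 on the log2 scale (-2.26 ± 0.41, adjusted p = 0.00573). In the young CD4 memory libraries, scaled together with the naive ones, Lef1 was at 256 ± 40.6 CPM. The young libraries were thus far above memory cells for this marker, while the values of the old libraries lay on both sides of it. The old libraries are called naive below because the sort was labelled so.

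The libraries of old mice stood apart from one another before any gene was tested. Total counts ran from 1754056 to 3570312 in the young libraries and were 10439700, 2373617 and 2678020 in the old. Immunoglobulin genes took 0.260% to 0.300% of counts in the young libraries and 0.485%, 0.963% and 14.8% in the old, with the highest share in old replicate 3. The difference in share had p = 0.0571 in a two-sided exact permutation test, the smallest value that 3 against 4 libraries allow. Globin genes took 0.0566% to 0.111% in young libraries and 0.123%, 1.51% and 1.04% in old ones. Results are therefore given without old replicate 3, and without old replicate 1, where this changed a call.

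Genes that mark several other cell types were higher in the same old libraries. Over all genes tested 6.93% rose and 2.51% fell. Of the plasma cell markers 13 of 15 tested rose, and their summed level was 873 to 1019 CPM in young libraries and 2388, 6160.3 and 138076 CPM in old ones. Neutrophil markers rose in 9 of 9 (158 to 238 CPM young, 698, 957 and 7477 CPM old), erythroid markers in 7 of 10 (599 to 1163 and 1256, 14945 and 12802 CPM), B cell markers in 4 of 11 (726 to 772 and 1526, 2424 and 40553 CPM) and macrophage and monocyte markers in 4 of 8 (204 to 265 and 387, 544 and 4455 CPM). Without old replicate 3, where 5.40% of all genes rose, the counts were 7 plasma cell, 7 neutrophil, 7 erythroid, 3 B cell and 1 macrophage marker. Leaving out any 1 young library gave 6 or 7 plasma cell, 7 neutrophil, 7 erythroid, 0 to 4 B cell and 1 or 2 macrophage markers, and DESeq2 called 7 plasma cell markers on all libraries. There were 2 B cell markers called without old replicate 2, and 7 of 11 macrophage markers without old replicate 1. The plasma cell and B cell lists hold immunoglobulin genes, so their sums are not separate from the immunoglobulin share given above. With immunoglobulin genes removed, where 827 genes rose in all, 5 of 7 plasma cell and 2 of 9 B cell markers rose. Sdc1, Tnfrsf17 and Mzb1 of the plasma cell list and Mpo and Elane of the neutrophil list did not pass the filter on low counts. Sums of natural killer cell markers (74.2 to 91.9 CPM young, 126, 214 and 117 CPM old) and of CD8 and gamma-delta T cell markers (52.6 to 79.2 and 67.03, 79.2 and 68.8 CPM) moved less. Of 4 dendritic cell markers tested Tcf4 rose (90.5 to 106 and 113, 160.0 and 364 CPM in sum), a call lost without any 1 library other than old replicate 1. Platelet markers went the other way: their sums were 44.3 to 59.2 CPM in young libraries and 30.1, 15.1 and 18.9 CPM in old ones, and Itgb3, the 1 gene of the list tested, fell, a call lost without old replicate 2. Cd79a, a defining B cell gene, was at 2.35, 7.35 and 15.3 CPM in the old libraries. The part of these cells in the gene results below was not tested beyond leaving libraries out.

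**Figure D1:**
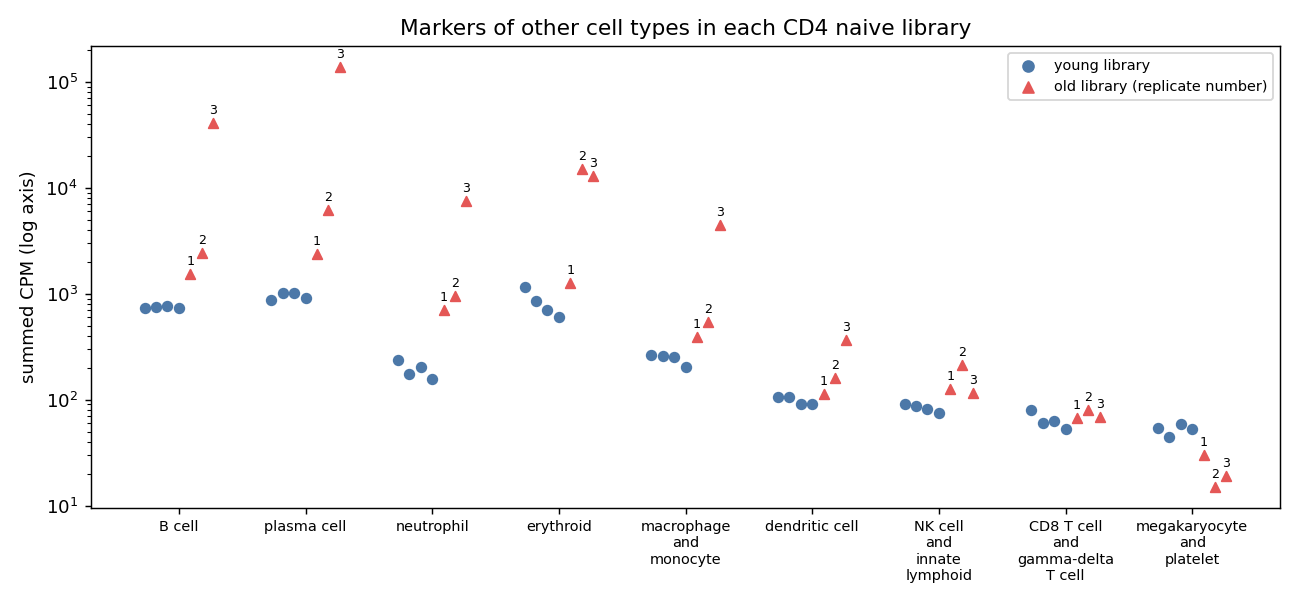
Summed CPM (log axis) of marker genes of 9 other cell types in each CD4 naive library, with circles for the 4 young and triangles for the 3 old libraries, which carry their replicate numbers. Old replicate 3 holds the highest sums of plasma cell, B cell, neutrophil and macrophage markers, and old replicates 2 and 3 the highest erythroid sums. The plasma cell and B cell sums include immunoglobulin genes.

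Across the transcriptome more genes rose than fell with age. Of 12019 genes tested 833 (6.93%) were higher and 302 (2.51%) were lower with age, 1135 (9.44%) in all. DESeq2 called 983 (8.18%) higher and 534 (4.44%) lower. The genes that rose did so by a median of 2.24 on the log2 scale and those that fell had a median of -1.12, while the median of all genes was 0.00. In every fit that left out 1 library 466 (3.88%) stayed called higher and 100 (0.832%) lower. Without old replicate 3 the counts were 673 (5.40%) higher and 215 (1.72%) lower, and without old replicate 1 they were 1211 (9.75%) and 698 (5.62%). The number that fell was 169 without old replicate 2 and 136, 171 and 154 without young replicate 2, 3 and 4. Old replicate 1 was the lowest old library in 60.1% of the genes that rose and the highest in 53.3% of those that fell. Among all genes tested, in either direction, old replicate 1 was the lowest old library in 34.6% and the highest in 34.7%. It was also the most deeply sequenced.

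**Figure D2:**
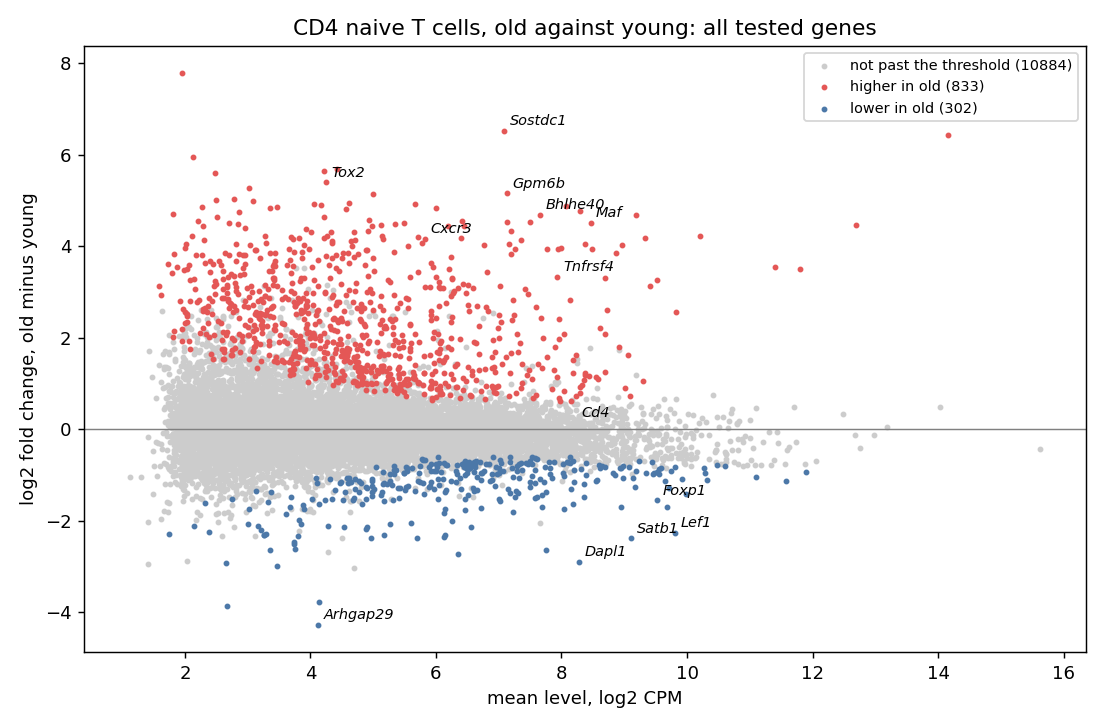
Each point is 1 of 12019 genes, with its mean level (log2 CPM) on the x axis and its log2 fold change, old minus young, on the y axis. The 833 genes that rose (red) reach larger changes than the 302 that fell (blue), and Cd4 lies near 0.

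The gene with the largest rise among those named by rule was Sostdc1, a secreted modulator of WNT and BMP signalling that is also made by follicular helper cells. It was at 4.35, 2.95, 3.21 and 2.63 CPM in the young libraries and 61.6, 350.2 and 526 CPM in the old. All old libraries were higher, with old replicate 1 the lowest of them (log2 fold change 6.52 ± 0.65, adjusted p = 0.000168). The lowest adjusted p-values among the risen genes belonged to Maf, a transcription factor of helper cells (chr 8, 115682942 to 115707794), and Tnfrsf4, the gene of the co-stimulatory receptor OX40 (chr 4, 156013843 to 156016612). Maf was at 23.7, 37.8, 39.96 and 34.7 CPM in young libraries and 633, 915 and 778 CPM in old ones (4.51 ± 0.24, adjusted p = 5.19e-06), and no old library overlapped a young one. Tnfrsf4 went from 50.8, 49.00, 52.5 and 46.3 CPM to 538, 548 and 422 CPM (3.34 ± 0.18, adjusted p = 5.19e-06), again without overlap. Both also had narrow ranges within each age.

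Podnl1, which codes for a small leucine-rich proteoglycan, had an equally clear separation, from 2.66 ± 0.392 to 65.3 ± 12.8 CPM (log2 fold change 4.58 ± 0.28, adjusted p = 1.34e-05). Cyfip1, a subunit of the WAVE complex that regulates actin, rose from 13.2 ± 3.33 to 153 ± 15.7 CPM (3.50). Casp4, an inflammatory caspase, rose from 3.81 ± 3.51 to 111 ± 22.1 CPM (4.92). Gpm6b, a membrane proteolipid better known from neurons and glia, rose from 8.93 ± 1.996 to 315 ± 267 CPM (5.15), and Angptl2, a secreted angiopoietin-like protein, from 0.8002 ± 0.643 to 47.7 ± 33.1 CPM (5.69). Ecel1, an endopeptidase, differed from most risen genes in its order, with 52.9, 28.6 and 20.2 CPM in the old libraries, so that old replicate 1 was the highest, against 1.34, 0.5903, 0.875 and 1.58 CPM in the young. Spock2, a proteoglycan, and Ypel4 rose by 4.65 and 4.90.

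Another group among the named risen genes consisted of transcripts abundant in neutrophils and other myeloid cells. Lcn2, lipocalin 2, was at 3.01, 0.5903, 2.04 and 1.58 CPM in the young libraries and 11.1, 21.2 and 182 CPM in the old (log2 fold change 5.15 ± 0.95, adjusted p = 0.00648). Most of the old mean came from old replicate 3. Without that library the log2 fold change of Lcn2 was 3.02, of Chil3, a chitinase-like protein, 2.54 in place of 4.82, of Wfdc21 3.01 in place of 4.82 and of Cxcl2, a neutrophil-attracting chemokine, 3.09 in place of 4.95. All 4 were still called higher without it. The summed neutrophil markers, a list that includes Lcn2, moved with these genes in the same libraries, as given above.

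At the other end, Arhgap29, a GTPase-activating protein (chr 3, 121952541 to 122016753), fell furthest among the named genes. Its levels were 33.4, 37.2, 20.7 and 26.8 CPM in the young libraries and 2.08, 0.816 and 0.877 CPM in the old. The ages did not overlap, and the log2 fold change was -4.27 ± 0.43 (adjusted p = 0.000169). In young CD4 memory libraries Arhgap29 was at 3.31 ± 2.38 CPM. Dapl1, a gene high in resting naive T cells, was at 462, 459.9, 522 and 540.2 CPM in young libraries and 137, 27.8 and 29.8 CPM in old ones (-2.90 ± 0.51, adjusted p = 0.00475), with old replicate 1 the nearest to the young libraries. Without old replicate 1 its fall was -4.10.

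The other genes named as lowest in fold change or in adjusted p had changes between -2.39 and -1.62 on the log2 scale. They included the phosphodiesterase gene Pde3b (from 107 ± 19.996 to 21.1 ± 8.396 CPM), the complement-regulating Cd55 (from 44.02 ± 9.37 to 9.31 ± 3.56 CPM), the neuropeptide receptor gene Vipr1 (from 54.6 ± 11.02 to 10.4 ± 7.11 CPM), Ly6c1, a surface antigen of the Ly6 family (from 106 ± 29.1 to 19.6 ± 14.8 CPM), and St8sia1, a ganglioside synthase (from 44.2 ± 4.67 to 9.702 ± 4.21 CPM). Ugcg, which makes glucosylceramide, fell from 408 ± 42.9 to 132 ± 25.1 CPM (adjusted p = 0.000492). Znrf3, a ubiquitin ligase that removes WNT receptors, fell from 216 ± 31.9 to 61.4 ± 8.56 CPM, and Hs3st3b1, a heparan sulfate sulfotransferase, from 113 ± 27.7 to 28.1 ± 3.57 CPM. Tdrp, Fbxl22 and Als2cl fell by 2.37, 2.34 and 1.83 on the log2 scale.

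The naive and quiescence programme was lower as a group in old libraries. Of its 26 genes, all tested, 11 fell (42.3%, against 2.51% of all genes), and 25 had a log2 fold change below 0, with a median of -1.22. The summed level of the list was 15176 to 19701 CPM in young libraries and 11729, 11455 and 8509 CPM in old ones. The old sums were all below the young sums, with old replicate 3 the lowest. Without old replicate 1 the number that fell was 17, without old replicate 2 it was 8, and without old replicate 3 it was 10.

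Satb1, a chromatin organiser of thymocytes and naive T cells (chr 17, 51736187 to 51833290), was at 933, 698, 1064 and 694 CPM in the young and 286, 131 and 65.8 CPM in the old libraries (log2 fold change -2.39 ± 0.42, adjusted p = 0.00501). Tcf7, the partner of Lef1 in naive and stem-like T cells, was at 866, 1046, 1191 and 1061 CPM in the young and 614, 433 and 383 CPM in the old (-1.13 ± 0.22, adjusted p = 0.00801). Neither gene overlapped between ages, and Tcf7 fell by less than Satb1 or Lef1. Foxp1, which holds naive T cells in quiescence, fell from 1021 ± 153 to 348 ± 49.9 CPM (-1.55 ± 0.20, adjusted p = 0.000899), Bach2, a repressor of effector genes, from 141 ± 17.1 to 31.8 ± 14.4 CPM (-2.13), and Foxo1, which drives the genes of homing and survival, from 217 ± 51.4 to 81.7 ± 25.4 CPM (-1.40). S1pr1, the receptor by which lymphocytes leave lymphoid organs, fell from 452 ± 54.8 to 162 ± 56.6 CPM (-1.47). These 6 genes, with Lef1 and Dapl1, were called in every fit that left out 1 library.

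Other members did not pass. Il7r, the survival receptor of naive and memory cells, was at 768, 651, 605 and 725 CPM in young libraries and 442, 364 and 510.4 CPM in old ones. The ages did not overlap, but the adjusted p was 0.0549 (log2 fold change -0.65 ± 0.19). Ets1, Btg1 and Btg2, abundant genes of resting lymphocytes, had log2 fold changes of -0.39 ± 0.24, -0.27 ± 0.28 and 0.34 ± 0.22, all with overlap between ages. Btg2 was the 1 member of the list with a positive value.

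Ccr7 and Cd44 are among the surface molecules by which naive and memory T cells are commonly told apart. Ccr7, the chemokine receptor for entry into lymph nodes, was at 334, 406, 368 and 398 CPM in the young and 226, 59.99 and 43.8 CPM in the old (log2 fold change -1.75 ± 0.47, adjusted p = 0.0380). Old replicate 1 lay between the young libraries and the other 2 old ones, and the call was lost when any single library other than old replicate 1 was left out. Without old replicate 1 the log2 fold change of Ccr7 was -2.84. Cd44, high on memory cells, was at 18.7, 36.6, 39.7 and 22.1 CPM in young libraries and 32.3, 109 and 387 CPM in old ones (2.57 ± 0.64, adjusted p = 0.0279). Old replicate 1 overlapped the young libraries, and without old replicate 3 the value was 1.24 and not called (adjusted p = 0.123), nor was it called without any 1 of the 4 young libraries.

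Genes of recent thymic emigrants and thymocytes were partly lower. Of 11 tested 3 fell (27.3%, against 2.51% of all genes) and 1 rose (9.09%, against 6.93%). Their median was -0.72, or -0.23 without young replicate 1, -0.42 without old replicate 3 and -0.48 without young replicate 3. Sox4, a transcription factor of immature T cells, was at 51.2, 70.2, 101 and 65.7 CPM in the young and 24.6, 18.4 and 7.02 CPM in the old libraries (log2 fold change -2.06 ± 0.38, adjusted p = 0.00594), without overlap. Satb1, which this list shares with the naive programme, and Themis, needed for thymic selection, were the others that fell, Themis from 125 ± 22.1 to 75.4 ± 9.89 CPM (-0.72). Themis lost its call without old replicate 2, old replicate 3 or young replicate 1, 3 or 4. Cd24a rose from 21.3 ± 3.64 to 113 ± 105 CPM (2.38), was at 1.32 without old replicate 3, and lost its call without that library or young replicate 1, 2 or 4. It is also abundant in erythroid and B cells, whose markers moved in the same libraries.

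Memory and effector genes rose as a group. Of 27 genes tested 21 rose (77.8%, against 6.93% of all genes) and the other 6 did not pass, with a median log2 fold change of 2.83. The summed level was 2209 to 2562 CPM in young libraries and 4109, 5398 and 8938 CPM in old ones, all old sums above all young ones. Without old replicate 3, 19 rose and 1 fell.

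Cxcr3, a receptor for interferon-induced chemokines (chr X, 101731535 to 101734269), was at 6.69, 7.67, 6.13 and 6.84 CPM in the young libraries and 79.95, 143 and 143 CPM in the old. The old values were all at least 10 times the young ones, a log2 fold change of 4.16 ± 0.27 (adjusted p = 1.71e-05). Il2rb, the receptor chain for interleukin 2 and 15, was at 34.4, 56.1, 57.2 and 55.2 CPM in young libraries and 265, 334 and 255 CPM in old ones (2.49 ± 0.22, adjusted p = 9.54e-05). No old library overlapped a young one, and the young memory libraries were at 300.1 ± 26.3 CPM. Bhlhe40, a transcription factor of cytokine-producing T cells, was at 14.4, 20.1, 21.9 and 12.1 CPM and 150.2, 572 and 615 CPM (4.69 ± 0.45, adjusted p = 0.000139), with old replicate 1 about 4 times below the other old libraries.

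Prdm1, which codes for the repressor Blimp-1 of effector T cells and plasma cells, was at 10.7, 8.85, 6.71 and 14.2 CPM in young libraries and 54.1, 67.3 and 74.1 CPM in old ones (log2 fold change 2.70 ± 0.27, adjusted p = 0.000171). Its old values had the same order as the immunoglobulin shares of those libraries, and without old replicate 3 the log2 fold change was 2.60. Eomes, a T-box factor of memory and cytotoxic cells, rose from 16.01 ± 4.21 to 154 ± 92.3 CPM (3.29 ± 0.43, adjusted p = 0.000962), above the 17.4 ± 6.55 CPM of young memory libraries. The annexin Anxa2 rose from 29.6 ± 4.49 to 261 ± 169 CPM (3.13) and the calcium-binding S100a11 from 38.4, 38.4, 36.8 and 76.8 CPM to 195, 202 and 324 CPM (2.34). Crip1, S100a13, Vim and Lgals1, abundant members that did not pass, had log2 fold changes of -0.40, 0.14, 0.25 and 0.98.

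**Figure D3:**
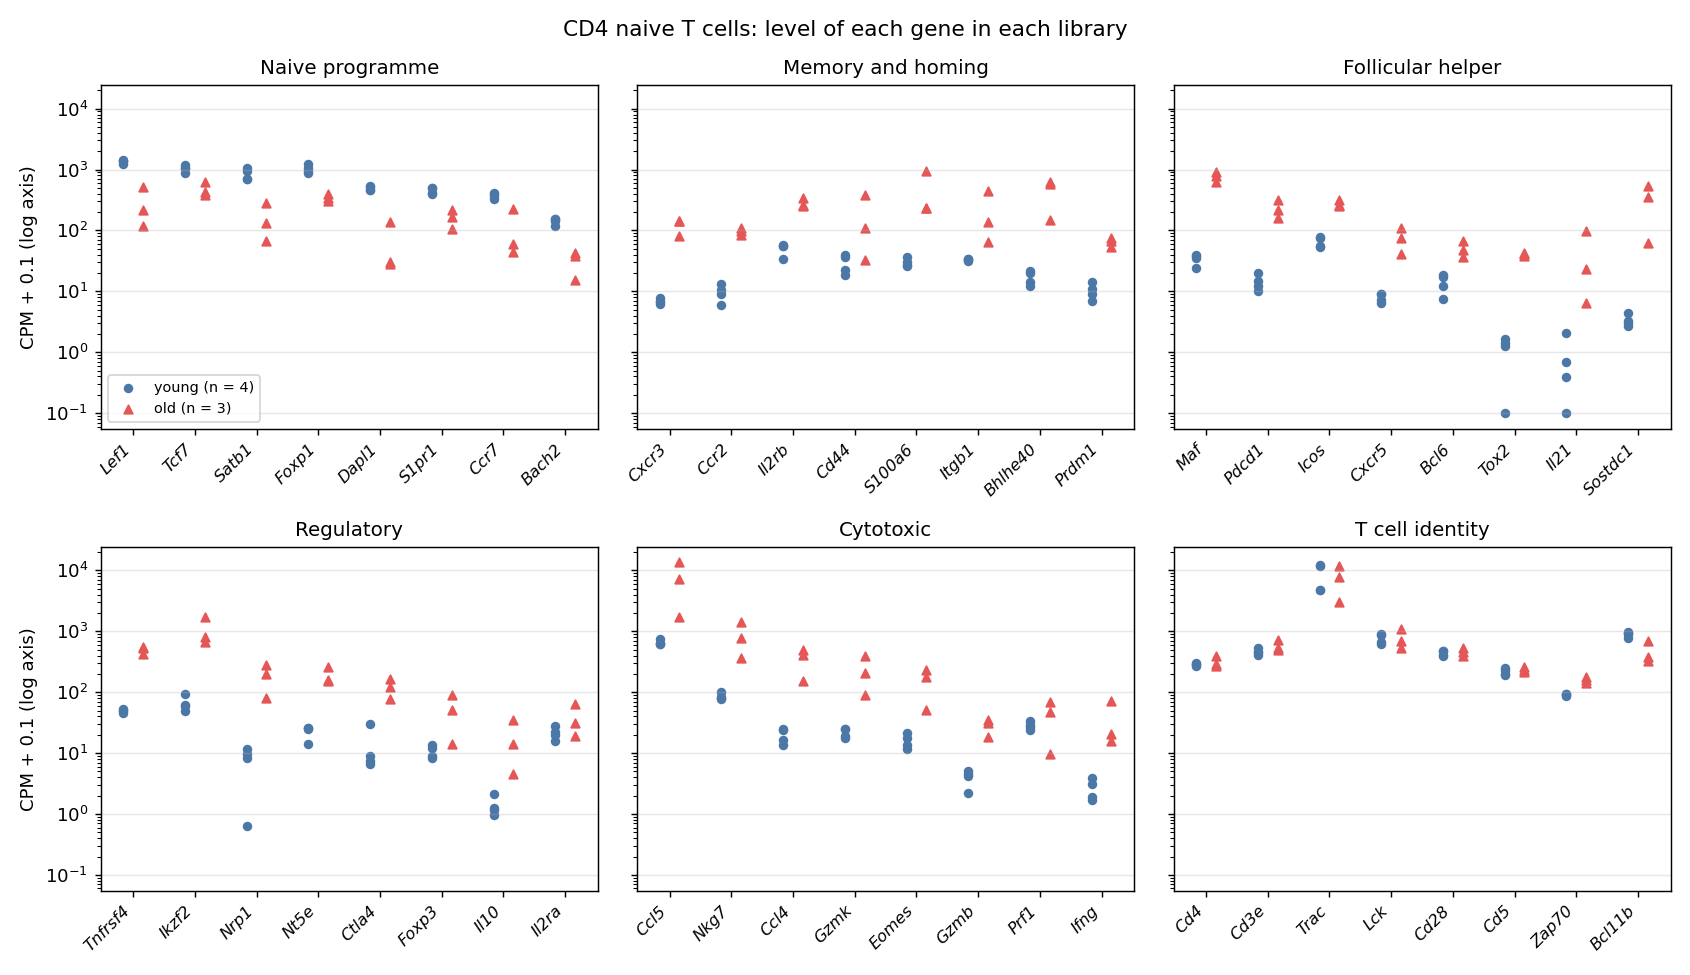
CPM plus 0.1 (log axis) of 48 genes in each library, with circles for young (n = 4) and triangles for old (n = 3), grouped by function. Genes of the naive programme lie lower and most of the memory, follicular helper, regulatory and cytotoxic genes higher in old libraries. Among the T cell identity genes Cd4, Trac, Lck and Cd28 overlap between ages, while Zap70 lies higher in every old library.

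Receptors for migration changed in both directions. Of 21 chemokine receptor, integrin and egress genes tested 10 rose (47.6%, against 6.93% of all genes) and 4 fell (19.0%, against 2.51%). The median was 0.91. Without old replicate 2 or any 1 young library 2 fell. Those that fell included Ccr7 and S1pr1, given above, and Itga6, the laminin-binding integrin alpha 6 (from 125 ± 32.9 to 46.3 ± 9.65 CPM, -1.43). Those that rose included Ccr2 (9.03, 12.99, 10.5 and 5.79 CPM in young libraries and 84.1, 110.2 and 96.5 CPM in old ones, log2 fold change 3.33 ± 0.26), a receptor for inflammatory chemokines. Cxcr6 rose from 5.92 ± 1.35 to 59.4 ± 30.8 CPM (3.34) and Itgal, the alpha chain of the integrin LFA-1, from 124 ± 22.05 to 315 ± 61.4 CPM (1.34). Klf2, the factor that keeps S1pr1 expressed, was at 331 ± 70.9 CPM in young libraries and 180.0 ± 87.98 CPM in old ones and did not pass (adjusted p = 0.0963).

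Follicular helper genes, whose cells give help to B cells in germinal centres, rose in 16 of 21 tested (76.2%, against 6.93% of all genes). Of the 21, 1 fell (4.76%, against 2.51%). Their median was 2.08, and the sums were 1204 to 1407 CPM in young libraries and 3366, 4281 and 4367 CPM in old ones, without overlap. Cxcr5, the receptor that guides cells to B cell follicles (chr 9, 44511787 to 44561877), was at 7.02, 8.85, 9.04 and 6.31 CPM in the young and 108, 75.5 and 40.3 CPM in the old libraries (log2 fold change 3.26 ± 0.33, adjusted p = 0.000171). Pdcd1, the gene of the inhibitory receptor PD-1 (chr 1, 94038305 to 94052553), was at 19.7, 14.8, 11.96 and 9.99 CPM in the young and 317, 215 and 161 CPM in the old (4.03 ± 0.29, adjusted p = 2.76e-05). Both were highest in old replicate 1 and lowest, among the old, in old replicate 3.

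Tox2, a nuclear factor of follicular helper cells, was at 1.34, 1.18, 0 and 1.58 CPM in young libraries and 37.9, 42.9 and 40.8 CPM in old ones (log2 fold change 5.40 ± 0.52, adjusted p = 0.000139). The old libraries agreed within a few CPM of each other. Icos, a co-stimulatory receptor, rose from 65.8 ± 12.98 to 278 ± 32.7 CPM (2.08), and Batf, an AP-1 factor of helper differentiation, from 55.6 ± 3.89 to 223 ± 50.4 CPM (2.00). Il21, the cytokine of these cells, was at 2.01, 0.5903, 0.292 and 0 CPM in young libraries and 6.23, 22.9 and 96.9 CPM in old ones (5.65 ± 1.01, adjusted p = 0.00532), so its size rested mainly on old replicate 3. Bcl6, their defining transcription factor, rose from 13.8 ± 5.06 to 50.5 ± 15.2 CPM (1.89). Ascl2, an early factor of the same cells, was at 0, 0, 0.583 and 0 CPM in young libraries and 5.33, 19.6 and 9.21 CPM in old ones, and no fold is given because 3 of the 4 young libraries had no count. Il6ra, a receptor of the cytokine interleukin 6, was the member that fell (from 294 ± 73.6 to 90.99 ± 26.5 CPM, -1.70, adjusted p = 0.00269).

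Genes of regulatory T cells, which restrain other T cells, rose in 15 of 19 tested (78.9%, against 6.93% of all genes), with a median of 2.57. Their sums were 465 to 499 CPM in young libraries and 3003, 4437 and 2545 CPM in old ones. Without old replicate 3 the number was 17. Ikzf2, a transcription factor of these cells (chr 1, 69531214 to 69687245), was at 49.8, 59.03, 60.97 and 93.1 CPM in the young and 807, 1746 and 663 CPM in the old libraries (log2 fold change 4.03 ± 0.35, adjusted p = 9.72e-05). The old values were all above the 489 ± 149 CPM of young memory libraries. Nt5e and Entpd1, the ectoenzymes CD73 and CD39 that turn extracellular ATP into adenosine, rose from 22.7 ± 5.83 to 192 ± 60.8 CPM (3.09) and from 2.11 ± 0.959 to 40.2 ± 19.1 CPM (4.22). Nrp1, neuropilin 1, rose from 7.54 ± 4.88 to 187 ± 100.3 CPM (4.55), and Tnfrsf1b, a receptor for tumour necrosis factor, from 19.7 ± 4.96 to 125 ± 18.2 CPM (2.69). Capg and Izumo1r also rose, by 2.34 and 1.80.

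The defining members of the list moved less evenly. Foxp3, the master regulator of regulatory T cells, was at 9.03, 8.26, 13.7 and 12.1 CPM in young libraries and 50.2, 91.4 and 14.03 CPM in old ones (log2 fold change 2.25 ± 0.49, adjusted p = 0.0146). Old replicate 3 was just above the young libraries, and the call was lost without old replicate 2 or young replicate 2. Il2ra, the high-affinity interleukin 2 receptor chain, was at 15.7, 19.5, 28.3 and 22.1 CPM and 31.4, 63.3 and 18.9 CPM, overlapped between ages and did not pass (0.81 ± 0.37, adjusted p = 0.217). Gpr83, Lrrc32 and Ikzf4 did not pass either, with log2 fold changes of 0.61, 1.32 and 1.46, and in each of them old replicate 3 was the lowest old library.

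Inhibitory receptors and factors linked to exhaustion rose in 11 of 15 tested (73.3%, against 6.93% of all genes, median 1.90). Of the 11, 6 also belong to lists above, namely Pdcd1, Tox, Prdm1, Tigit, Ctla4 and Entpd1. Without old replicate 2 the number was 8 of 17. Havcr2, the gene of TIM-3, was at 1.003, 1.77, 0.583 and 1.05 CPM in young libraries and 11.02, 12.7 and 21.5 CPM in old ones (log2 fold change 3.81 ± 0.50, adjusted p = 0.000902), and Lag3 at 2.34, 1.77, 1.46 and 1.05 CPM and 10.2, 7.75 and 16.7 CPM (2.74 ± 0.47, adjusted p = 0.00419). Both were low in absolute level but did not overlap between ages. Ctla4, which outcompetes CD28 for its ligands, rose from 13.3 ± 11.4 to 120.5 ± 41.8 CPM (3.10), Tigit from 8.39 ± 2.31 to 32.3 ± 12.6 CPM (1.90) and Tox, a factor of sustained T cell activation, from 158 ± 15.1 to 487 ± 211 CPM (1.62). Nr4a1 and Nr4a3, induced by receptor signals, and Vsir and Btla, inhibitory receptors, did not pass, with log2 fold changes from 0.06 to 0.58.

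Cytotoxic genes, typical of CD8 and natural killer cells, rose in 11 of 18 tested (61.1%, against 6.93% of all genes), with a median of 2.99. The sums were 977 to 1121 CPM in young libraries and 16628, 9658 and 2994 CPM in old ones. Old replicate 1 had the highest sum and old replicate 3 the lowest of the old libraries. Members whose levels are not printed here made up most of the sum in old replicate 1. Gzmk, granzyme K (chr 13, 113171608 to 113225908), was at 19.1, 24.8, 17.5 and 24.7 CPM in young libraries and 386, 209 and 90.8 CPM in old ones (log2 fold change 3.43 ± 0.40, adjusted p = 0.000447). Its old level exceeded the 26.9 ± 5.19 CPM of young memory libraries in every old library. Ccl4, a chemokine of activated T cells, was at 24.1, 16.5, 25.1 and 13.7 CPM and 409, 495 and 154 CPM (4.13 ± 0.38, adjusted p = 0.000113), and Nkg7, a cytotoxic granule protein, at 101, 81.5, 78.2 and 83.1 CPM and 1408, 781 and 365 CPM (3.31 ± 0.37, adjusted p = 0.000291).

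Among the other cytotoxic members, Gzmb, granzyme B, rose from 3.91 ± 1.26 to 27.99 ± 8.89 CPM (2.81), Ccl3 from 3.93 ± 1.65 to 60.8 ± 11.5 CPM (3.91), the protease inhibitor gene Cst7 from 19.02 ± 6.13 to 174 ± 81.9 CPM (3.17) and Klrg1, an inhibitory receptor of differentiated cells, from 8.07 ± 2.61 to 77.05 ± 9.54 CPM (3.21). The pore-forming Prf1 was at 24.1, 33.6, 28.9 and 26.3 CPM in young libraries and 68.9, 48.2 and 9.65 CPM in old ones and did not pass (log2 fold change 0.62 ± 0.46, adjusted p = 0.477). Gzma, Runx3 and Ctsw did not pass either, at 0.49 ± 0.36, 0.81 ± 0.27 and 0.85 ± 0.24. Cd8a and Cd8b1, the defining genes of CD8 cells, overlapped between ages (Cd8b1 from 42.9 ± 7.99 to 35.5 ± 0.722 CPM).

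Of the lineage factors and cytokines of other helper subsets 12 of 25 passed the filter on low counts. Of these 7 rose (58.3%, against 6.93% of all genes, median 2.64). Without old replicate 1 the number was 11. Il12rb1, a receptor chain for interleukin 12 and 23, rose from 1.97 ± 0.496 to 28.7 ± 8.23 CPM (3.88), Rora, a factor of Th17 and innate lymphoid cells, from 20.6 ± 4.72 to 138 ± 47.5 CPM (2.75), Ifng, the interferon of Th1 cells, from 2.54 ± 1.05 to 35.9 ± 30.5 CPM (3.70) and Tbx21, which encodes T-bet, from 2.86 ± 1.37 to 22.3 ± 13.5 CPM (2.84). Il10, an anti-inflammatory cytokine, was at 2.01, 1.18, 0.875 and 1.05 CPM in young libraries and 14.1, 4.49 and 35.5 CPM in old ones (3.75, adjusted p = 0.00583). Gata3 and Stat6 of the Th2 pathway had log2 fold changes of 0.49 ± 0.28 and -0.14 ± 0.17 and did not pass.

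**Figure D4:**
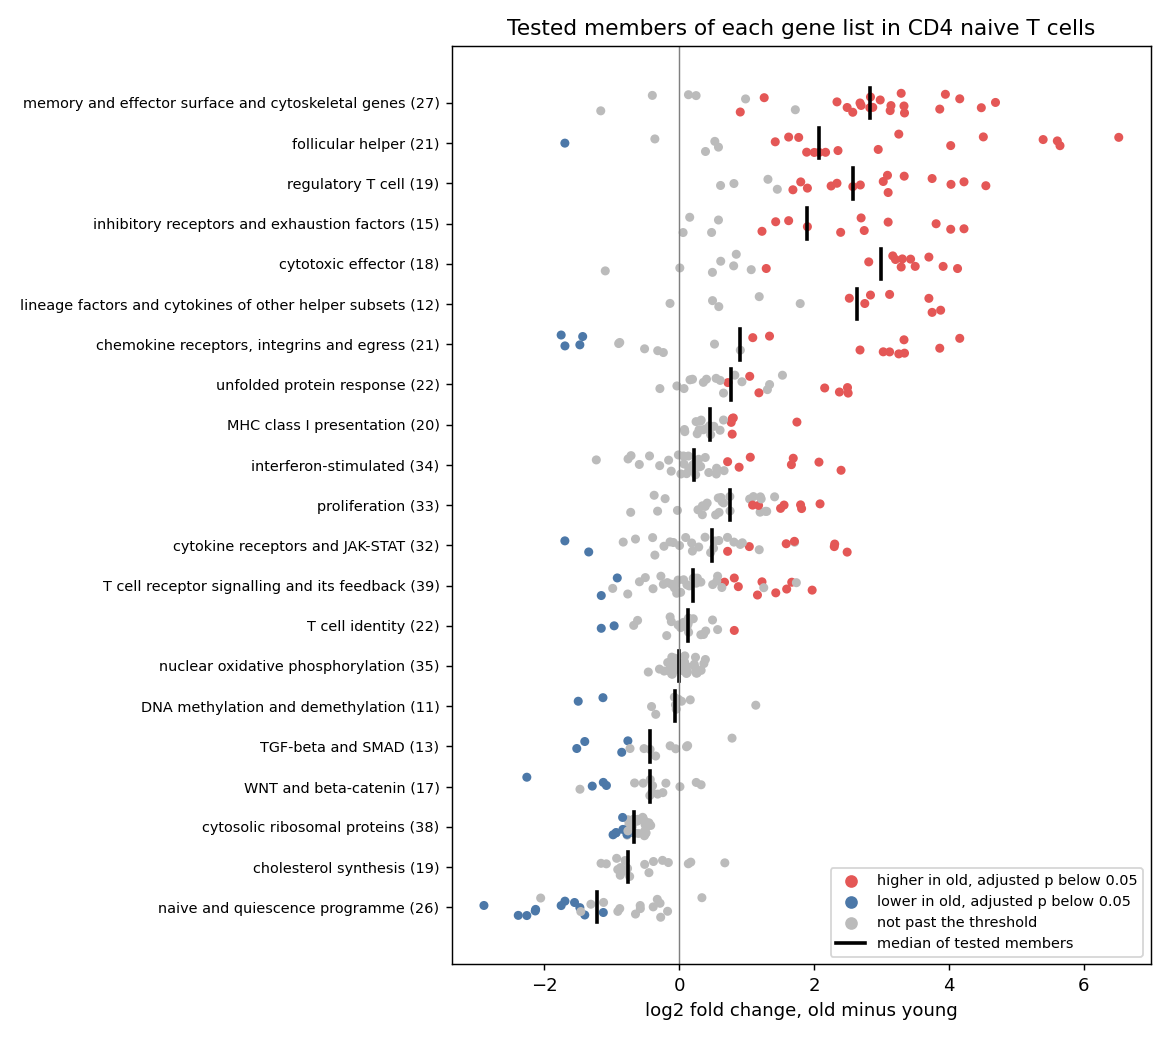
Log2 fold change, old minus young, of each tested member of 21 gene lists, with the number tested in parentheses, red and blue for members that rose or fell and a black bar for the median. The memory, follicular helper, regulatory, inhibitory, cytotoxic and helper subset lists have medians from 1.90 to 2.99, and the naive programme has the lowest median, -1.22.

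The sequences just upstream of 4 genes that rose are printed to show where motifs of T cell transcription factors lie at memory (Prdm1, S100a11), cytotoxic (Gzmb) and follicular helper (Tox2) genes. Each is the 250 bases before a RefSeq transcription start (build GRCm38.p6), written 5' to 3' in the direction of the gene, with motif matches in capitals. In Prdm1, S100a11 and Gzmb the capitals mark TGANTCA, the binding motif of AP-1 factors such as Batf and Fos, which is its own reverse complement. In Tox2 they mark CTTTGAT, the motif of the factors Lef1 and Tcf7, read as its reverse complement ATCAAAG. The windows lie at chr10:44458749-44458998 (minus strand), chr3:93520246-93520495 (plus strand), chr14:56262335-56262584 (minus strand) and chr2:163225203-163225452 (plus strand), all directly upstream of the start, and those of Prdm1 and Tox2 belong to starts inside the annotated span of the gene.
Prdm1: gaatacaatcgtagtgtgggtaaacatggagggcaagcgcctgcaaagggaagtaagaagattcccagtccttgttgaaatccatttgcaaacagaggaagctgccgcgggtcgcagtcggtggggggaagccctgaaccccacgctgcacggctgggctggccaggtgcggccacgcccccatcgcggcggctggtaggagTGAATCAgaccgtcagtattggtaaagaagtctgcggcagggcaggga
S100a11: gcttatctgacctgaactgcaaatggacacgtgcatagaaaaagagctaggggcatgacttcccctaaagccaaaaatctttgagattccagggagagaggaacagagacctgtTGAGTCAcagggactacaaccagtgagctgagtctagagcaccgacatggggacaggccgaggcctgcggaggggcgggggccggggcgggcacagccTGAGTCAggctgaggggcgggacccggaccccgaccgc
Gzmb: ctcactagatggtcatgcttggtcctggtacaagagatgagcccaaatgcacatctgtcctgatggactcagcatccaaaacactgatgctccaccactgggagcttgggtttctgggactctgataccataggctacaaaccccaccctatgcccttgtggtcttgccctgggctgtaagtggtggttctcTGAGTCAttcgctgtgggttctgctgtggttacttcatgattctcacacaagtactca
Tox2: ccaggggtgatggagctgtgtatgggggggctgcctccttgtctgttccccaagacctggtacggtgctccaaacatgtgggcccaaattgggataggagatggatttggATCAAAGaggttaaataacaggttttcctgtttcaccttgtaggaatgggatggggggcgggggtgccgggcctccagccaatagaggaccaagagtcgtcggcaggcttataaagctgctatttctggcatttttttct
The AP-1 matches begin 48 bases before the start in Prdm1, 38 and 136 bases before it in S100a11 and 58 bases before it in Gzmb. Over all genes, searched on both strands, TGANTCA was present in 7.58% of 818 promoters of genes that rose, 3.40% of 294 of genes that fell, 4.22% of 10515 of all genes tested and 6.75% of 32851 in the whole table. CTTTGAT was present in 3.18%, 2.38%, 2.32% and 3.21% of the same groups. The 2 motifs can overlap, since both can hold the letters TGAT, and a gene can have several promoters whose windows overlap. A match describes the letters and not binding.

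Transcripts of the AP-1 factors themselves varied among libraries of the same age. Of 8 tested 3 rose (37.5%, against 6.93% of all genes). They were Maf and Batf, given above, and Fosb (16.05, 9.45, 20.1 and 14.7 CPM in young libraries and 19.7, 92.2 and 291 CPM in old ones, log2 fold change 3.11 ± 0.67). Fosb overlapped between ages and lost its call without young replicate 2 or 4. Junb was at 604, 792, 3681 and 1979 CPM in the young libraries, a spread of about 6 times, and 783, 1574 and 2099 CPM in the old, and did not pass. Fos, Jun and Jund, induced within minutes of stimulation or handling, were highest in old replicate 3 and did not pass either (1.78 ± 0.77, 1.18 ± 0.47 and 0.48 ± 0.49). Without old replicate 1 the number that rose was 7 of 10 tested. Of 19 heat shock and immediate early genes, which share Fosb with this list, 3 rose (15.8%, against 6.93% of all genes). The number was 7 without old replicate 1 and 1 without young replicate 2 or 4. Ier3, an inhibitor of apoptosis, was at 1.003, 0.5903, 0.875 and 0.526 CPM in young libraries and 6.23, 16.3 and 7.89 CPM in old ones (3.61 ± 0.56, adjusted p = 0.00253).

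Cytokine receptor and signalling genes changed in part. Of 32 genes of cytokine receptors and JAK-STAT signalling 7 rose (21.9%, against 6.93% of all genes) and 2 fell (6.25%, against 2.51%). The median was 0.49. Without old replicate 1 the numbers were 11 and 4, and without old replicate 2 they were 6 and 1 with a median of 0.31. Beside Il2rb, Il15ra and Il10ra rose from 5.29 ± 3.77 to 26.6 ± 1.58 CPM (2.31) and from 10.3 ± 3.99 to 51.1 ± 4.12 CPM (2.30), and the feedback inhibitors Cish and Socs3 by 1.71 and 1.59. Il6ra and Ifngr2, a chain of the interferon gamma receptor, fell, Ifngr2 from 130.4 ± 43.6 to 51.6 ± 12.5 CPM (-1.34), though its call was lost without old replicate 2. Il2rg, the shared receptor chain, was at 899.8 ± 75.9 CPM in young libraries and 902 ± 342 CPM in old ones and did not pass, nor did Jak1, at 734 ± 111 CPM in young libraries and 558 ± 119.6 CPM in old ones.

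Of 39 genes of T cell receptor signalling and its feedback 9 rose (23.1%, against 6.93% of all genes) and 2 fell (5.13%, against 2.51%). The median was 0.21. The numbers were 9 and 4 without old replicate 1 and 5 and 1 without old replicate 2. Zap70, the kinase that binds the phosphorylated receptor, rose from 92.6, 93.3, 87.5 and 89.4 CPM in young libraries to 180.1, 142 and 157 CPM in old ones (log2 fold change 0.82 ± 0.16, adjusted p = 0.00974). Egr2, induced by receptor signals, rose from 9.64 ± 3.72 to 36.9 ± 3.42 CPM (1.97), the adaptor gene Sla from 76.3 ± 12.5 to 206 ± 29.7 CPM (1.43), Nfkb2 from 18.02 ± 3.65 to 53.9 ± 7.23 CPM (1.59) and Malt1, a scaffold of NF-kB activation, from 75.7 ± 18.2 to 242 ± 142 CPM (1.67). Lck, the kinase that starts receptor signalling, was at 767 ± 136 CPM in young libraries and 777 ± 289.9 CPM in old ones, and the co-stimulatory receptor gene Cd28 at 436 ± 43.3 CPM in young libraries and 457 ± 69.9 CPM in old ones. Both overlapped between ages and did not pass.

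With all libraries, genes of the TGF-beta and WNT pathways were lower where they passed. Of 13 genes of TGF-beta and SMAD signalling 4 fell (30.8%, against 2.51% of all genes, median -0.43). The number was 3 without old replicate 1 or young replicate 4. It was 2 without old replicate 2 or 3 or young replicate 2 or 3. In the fit without young replicate 3, 1 member rose. Tgfbr3, the co-receptor betaglycan, was at 66.2, 109, 87.2 and 98.4 CPM in young libraries and 33.1, 24.5 and 36.4 CPM in old ones (log2 fold change -1.52 ± 0.23, adjusted p = 0.00251), and Smad4, the shared transducer, at 55.2, 64.9, 59.2 and 61.5 CPM and 32.3, 33.5 and 34.2 CPM (-0.85 ± 0.18, adjusted p = 0.0134). Neither overlapped between ages, and the spread of Smad4 among old libraries was under 2 CPM. Tgfbr2 and the inhibitory Smad7 fell by 0.76 and 1.40 on the log2 scale, and both lost the call without old replicate 2 or 3 or young replicate 2 or 3, Smad7 also without old replicate 1 and Tgfbr2 without young replicate 4. Of 17 genes of WNT and beta-catenin signalling 4 fell (23.5%, against 2.51% of all genes, median -0.43). They were Lef1, Tcf7, and their co-activators Bcl9 (from 39.7 ± 3.598 to 16.3 ± 2.92 CPM, -1.29) and Bcl9l (from 40.5 ± 10.2 to 19.4 ± 5.796 CPM, -1.08). Bcl9l lost its call without old replicate 1 or 3 or young replicate 2, 3 or 4.

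Of 11 genes of DNA methylation and demethylation 2 fell (18.2%, against 2.51% of all genes), both oxygenases that oxidise 5-methylcytosine. Tet3 was at 229, 296, 231 and 299 CPM in young libraries and 88.8, 105 and 85.9 CPM in old ones (log2 fold change -1.50 ± 0.19, adjusted p = 0.000732), and Tet1 at 65.2, 92.1, 47.5 and 66.8 CPM and 27.4, 37.5 and 28.1 CPM (-1.13 ± 0.25, adjusted p = 0.0168, lost without young replicate 2). Both were lower in every old library. Tet2, Dnmt1 and Dnmt3a did not pass, at -0.06 ± 0.32, -0.04 ± 0.20 and -0.41 ± 0.22.

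A minority of MHC class I presentation and interferon-stimulated genes rose. Of 20 genes of MHC class I presentation 5 rose (25.0%, against 6.93% of all genes). All 20 had a positive log2 fold change (median 0.46). Tap1, a peptide transporter, rose from 94.4 ± 6.05 to 162 ± 23.7 CPM (0.79 ± 0.17, adjusted p = 0.0145) and H2-Q6, a nonclassical class I gene, from 32.5 ± 12.7 to 111 ± 25.6 CPM (1.75), though the Q genes are near-identical copies whose separate counts are uncertain. B2m, the light chain, was at 5195 ± 494 CPM in young libraries and 6507 ± 768 CPM in old ones and did not pass. The number that rose was 2 or 3 of the 20 without any 1 library other than old replicate 1. Of 34 interferon-stimulated genes 7 rose (20.6%, against 6.93% of all genes, median 0.22), among them Isg20, Gbp2 and Gbp3 (by 1.66, 1.05 and 2.40). Without any 1 library other than old replicate 1, 3 or 4 rose. Class II genes, which mouse T cells express little, rose in 6 of 9 (66.7%, against 6.93% of all genes, median 1.68). The number was 2 without old replicate 3 or young replicate 1 and 1 without young replicate 4. Each of the 6 lost its call without young replicate 2. H2-Ab1 was at 61.2, 69.7, 93.3 and 73.1 CPM in young libraries and 133, 177 and 518 CPM in old ones, highest in the library with the highest B cell and macrophage marker sums.

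Proliferation, protein folding and stress genes depended on single libraries. Of 33 proliferation genes 7 rose (21.2%, against 6.93% of all genes), with a median of 0.75, or 0.28 without old replicate 3. The number was 11 of 34 without old replicate 1, and 1 to 4 without any 1 of the other libraries. Mcm6 rose in every fit. It codes for a subunit of the replicative helicase and was at 61.2, 56.7, 65.9 and 60.5 CPM in young libraries and 144, 135 and 136 CPM in old ones (log2 fold change 1.18 ± 0.16, adjusted p = 0.00117). Top2a, high in dividing cells, was at 54.5, 73.1 and 187 CPM in the old libraries against 42.5, 34.2, 37.9 and 31.6 CPM in the young, and lost its call without old replicate 3 or young replicate 2, 3 or 4. Of 22 unfolded protein response genes 7 rose (31.8%, against 6.93% of all genes). The number was 13 without old replicate 1, 4 without old replicate 3 and 2 or 3 without any 1 young library. Pdia6, a disulfide isomerase, rose in every fit (from 112 ± 8.53 to 255 ± 52.9 CPM, 1.18), while Xbp1, which also drives antibody secretion in plasma cells, was at 97.8, 92.6 and 636 CPM in the old libraries and had a log2 fold change of 2.38, or 0.85 without old replicate 3, with the call lost without any 1 young library.

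Cell cycle inhibitors and damage-response genes rose in 6 of 18 tested (33.3%, against 6.93% of all genes) and fell in 1 (5.56%, against 2.51%), with a median of 0.08 that ran from 0.05 to 0.27 when 1 library was left out. Cdkn1a, the gene of p21, was at 6.69, 6.49, 11.7 and 6.31 CPM in young libraries and 17.3, 56.3 and 79.8 CPM in old ones (log2 fold change 2.65 ± 0.47, adjusted p = 0.00507), and Pmaip1, the pro-apoptotic NOXA, at 32.8, 36.01, 49.01 and 25.8 CPM and 119, 203 and 328 CPM (2.58 ± 0.33, adjusted p = 0.000763). Neither overlapped between ages, and old replicate 3 was highest for both. Cdkn2c, p18, rose from 5.66 ± 3.34 to 23.01 ± 3.03 CPM (1.97), Trp53inp1 from 145 ± 15.8 to 354 ± 124 CPM (1.29) and Sesn1, a stress-induced sestrin, fell from 79.05 ± 21.05 to 32.9 ± 15.3 CPM (-1.23), a call lost without old replicate 2 or 3 or young replicate 1, 2 or 4. Trp53 itself and Cdkn1b, p27, did not pass (-0.23 ± 0.16 and -0.45 ± 0.35).

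Ribosomal protein genes, high in resting naive T cells, were lower in sum. Of 38 genes of cytosolic ribosomal proteins, all tested, 7 fell (18.4%, against 2.51% of all genes). All 38 had a negative log2 fold change (median -0.67). The sums were 55957 to 65249 CPM in young libraries and 52155, 31331 and 31466 CPM in old ones, with old replicate 1 close to the young range. Without old replicate 1 all 38 fell, while the 7 lost their calls without any 1 of the other libraries. DESeq2 on all libraries called 22 lower. Rps19 was at 5045, 4625, 4751 and 4755 CPM in young libraries and 3675, 1916 and 1906 CPM in old ones (-0.94 ± 0.26, adjusted p = 0.0474).

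The lists of metabolic genes differed in their calls. Of 35 nuclear genes of oxidative phosphorylation the median was -0.00, and edgeR and DESeq2 each called 0, with 1 higher and 1 lower at an unadjusted p below 0.05. Cholesterol synthesis genes had a median of -0.77 over 19 tested (-0.50 without young replicate 1), with 0 called by edgeR, 6 lower at an unadjusted p below 0.05 and 1 lower by DESeq2. Of 19 glycolysis genes 3 rose (15.8%, against 6.93% of all genes) and 2 fell (10.5%, against 2.51%), with a median of 0.43. Leaving out 1 library gave 3 or 4 that rose and 0 to 2 that fell. Hif1a, the oxygen-sensitive factor that activates glycolysis, was at 80.6, 95.6, 120.2 and 69.96 CPM in young libraries and 391, 372 and 330.2 CPM in old ones (log2 fold change 1.99 ± 0.21, adjusted p = 0.000196), with no overlap. Slc16a3, a lactate exporter, and Tpi1, a glycolytic enzyme, rose by 3.56 and 1.32, while Myc and Pdk1 fell by 1.25 and 1.48, and Ldha, Gpi1, Pkm and Aldoa did not pass. Pdk1 lost its call without old replicate 2 or young replicate 2, and Myc without any 1 library other than old replicate 1.

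To ask which of these differences separated the CD4 from the CD8 lineage, the age change of CD4 naive cells was compared with that of CD8 naive cells, which share no library with them. In the interaction test over 13048 genes, 71 (0.544%) had a higher change in CD4 naive cells and 17 (0.130%) a lower one, 88 (0.674%) in all. The numbers were 184 and 106 without CD4 old replicate 1 and 27 and 8 without CD8 old replicate 1. CPM values in this and the next comparison come from a scaling over both cell types. Nt5e went in CPM from 23.2 ± 5.96 to 196 ± 62.3 in CD4 and from 31.6 ± 9.72 to 15.4 ± 2.38 in CD8 naive cells, a log2 difference between the changes of 4.13 ± 0.41 (adjusted p = 5.74e-05). Angptl2 went in CPM from 0.817 ± 0.656 to 48.9 ± 34.2 in CD4 and from 2.500 ± 0.328 to 2.17 ± 0.676 in CD8 cells (5.91 ± 0.85, adjusted p = 0.00243). Cxxc5, a CXXC zinc finger factor, moved in opposite directions, in CPM from 7.58 ± 3.03 to 30.8 ± 7.79 in CD4 and from 56.04 ± 9.399 to 20.2 ± 1.19 in CD8 cells (3.51 ± 0.39, adjusted p = 0.000254). Tshz2, Ccdc80 and Gpr55 had differences of 4.76 ± 0.86, 4.51 ± 0.57 and 3.97 ± 0.68. Ccdc80 went in CPM from 0.577 ± 0.803 to 14.5 ± 2.64 in CD4 and from 61.0 ± 3.87 to 58.5 ± 1.81 in CD8 cells. Tshz2 was at 1.36 ± 1.17 CPM in young CD4 cells. For both genes the lowest young CD4 library was at 0 CPM, so the size of their differences is uncertain.

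Regulatory T cell genes made up 7 of the 71, of 18 tested, against 0.544% of all genes. They were Tnfrsf18, Tnfrsf4, Nrp1, Capg, Izumo1r, Itgae and Nt5e. Tnfrsf4 went in CPM from 50.7 ± 2.599 to 513 ± 69.5 in CD4 and from 3.43 ± 2.38 to 5.25 ± 0.912 in CD8 cells (2.92 ± 0.46, adjusted p = 0.00371). Cytotoxic genes made up 4 of the 17 with a lower change, of 18 tested, against 0.130% of all genes. They were Gzma, Gzmb, Ccl5 and Fasl. Fasl, the ligand of the death receptor Fas, went in CPM from 20.5 ± 6.26 to 49.998 ± 14.6 in CD4 and from 2.998 ± 0.567 to 177 ± 44.1 in CD8 cells (-4.59 ± 0.41, adjusted p = 2.79e-05). Gzma went in CPM from 15.8 ± 5.79 to 22.6 ± 6.704 and from 7.62 ± 4.09 to 130.5 ± 39.2 (-3.66 ± 0.52, adjusted p = 0.00243). Cd28, the co-stimulatory receptor of naive cells, went in CPM from 446 ± 45.01 to 467 ± 74.1 in CD4 and from 157 ± 16.5 to 451 ± 114 in CD8 cells (-1.46 ± 0.25, adjusted p = 0.00780).

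Arhgap29 fell further in CD4 than in CD8 naive cells, where it went in CPM from 14.9 ± 2.96 to 9.07 ± 4.74 (log2 difference -3.47 ± 0.56, adjusted p = 0.00509). Sytl2, a granule-docking protein, went in CPM from 23.3 ± 7.31 to 13.5 ± 5.58 in CD4 and from 6.42 ± 1.88 to 26.9 ± 7.4999 in CD8 cells, and Serpina3g, a serine protease inhibitor, rose in both, in CPM from 11.7 ± 2.11 to 161 ± 47.4 and from 3.897 ± 0.8004 to 201 ± 14.1. Of other genes named above, Podnl1 and Cyfip1 had a higher change in CD4 cells (2.75 ± 0.39 and 2.28 ± 0.32, adjusted p = 0.00243 for each), called in every fit that left out 1 library. Ugcg, Pde3b and Hs3st3b1 had a lower one (-1.21 ± 0.25, -1.65 ± 0.35 and -1.77 ± 0.37), each not called in some of those fits. The difference did not pass for others: for Lef1 the log2 difference was -0.86 ± 0.43 (adjusted p = 0.541), for Maf -0.34 ± 0.28 (adjusted p = 0.785) and for Cxcr3 0.11 ± 0.39 (adjusted p = 0.969). These p-values do not show that the lineages changed alike.

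**Figure D5:**
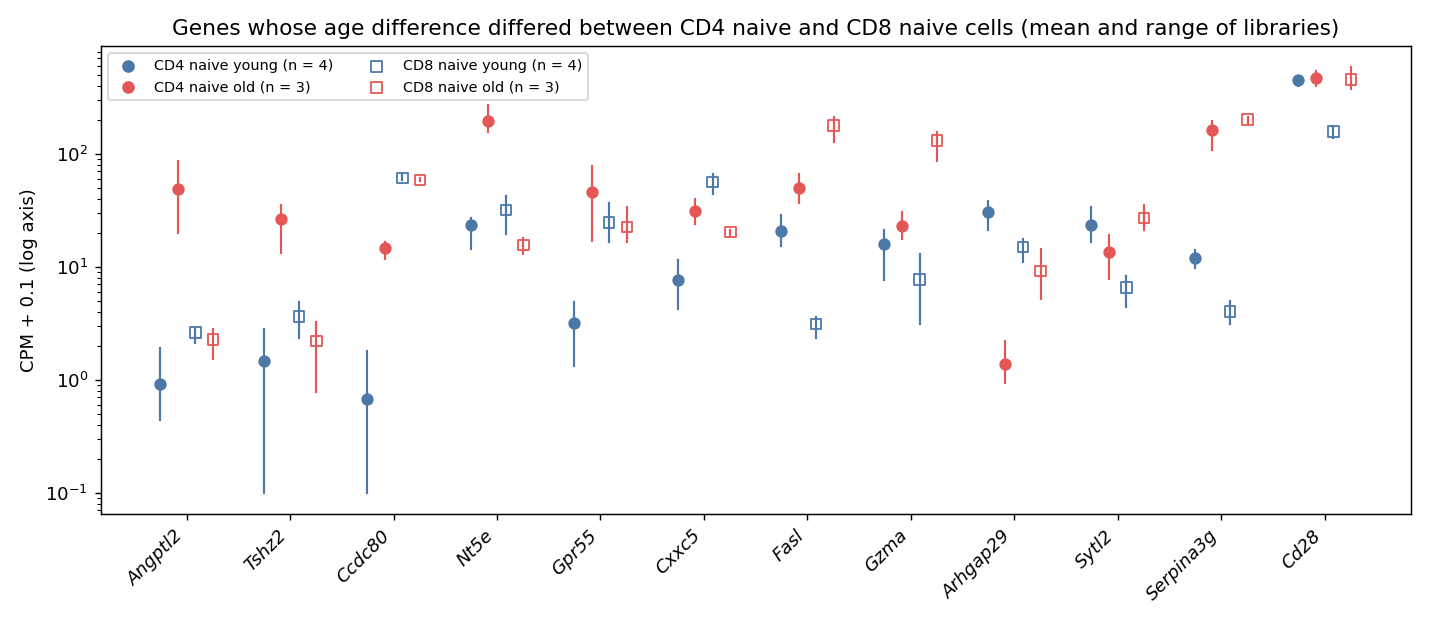
Mean CPM plus 0.1 (log axis) of 12 genes in young and old CD4 naive (filled circles) and CD8 naive libraries (open squares), with lines from the lowest to the highest library. The first 6 genes had a higher age change in CD4 cells and the last 6 a lower one, as for Fasl, which had a mean of 177 CPM in old CD8 and 49.998 CPM in old CD4 libraries.

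The same test against CD4 memory cells asked where ageing of the naive sort differed from that of the memory sort. Over 13562 genes, 570 (4.20%) had a higher change in naive cells and 58 (0.428%) a lower one, 628 (4.63%) in all. Without old naive replicate 3 the numbers were 252 and 6, and without old naive replicate 1 they were 884 and 292. Of 27 memory and effector genes 18 had a higher change in naive cells. Cxcr3, for example, went in CPM from 7.16 ± 0.668 to 126 ± 37.9 in naive cells and from 206 ± 24.5 to 191 ± 85.8 in memory cells, with a log2 difference of 4.24 ± 0.43 (adjusted p = 1.29e-05). Maf went in CPM from 35.7 ± 7.75 to 798 ± 147 in naive and from 387 ± 60.1 to 815 ± 266 in memory cells (3.41 ± 0.32, adjusted p = 8.34e-06). The old naive and old memory levels of both genes overlapped.

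The 6 genes with the highest differences by the naming rule were Rnd3, Batf3, Napsa, Ptafr, Havcr2 and Cybb. Cybb, a subunit of the phagocyte oxidase, went in CPM from 17.6 ± 6.73 to 410.4 ± 447 in naive and from 339 ± 140.4 to 209 ± 108 in memory cells (5.20 ± 0.78, adjusted p = 0.000619). Ptafr, the receptor for platelet-activating factor, went in CPM from 3.09 ± 0.257 to 31.1 ± 40.04 and from 59.4 ± 21.97 to 12.2 ± 9.401 (5.49 ± 0.97). Rnd3, an atypical small GTPase, went in CPM from 1.73 ± 0.728 to 23.3 ± 31.9 and from 118 ± 41.5 to 19.6 ± 14.8 (6.09 ± 1.09), and Napsa, an aspartic protease, in CPM from 2.82 ± 0.784 to 57.7 ± 75.3 and from 103 ± 52.4 to 37.4 ± 24.7 (5.69 ± 1.03). In these 4 genes the SD of the old naive libraries exceeded their mean. Of all genes 4.20% had a higher change in naive cells, against 7 of 13 macrophage and monocyte and 6 of 11 dendritic cell markers tested. The numbers were 8 of 10 for MHC class II genes, 7 of 14 for plasma cell, 1 of 13 for neutrophil and 0 of 10 for erythroid markers. The macrophage and monocyte marker sum was highest in old naive replicate 3. The part of other cells, in the naive or the memory libraries, in these differences was not tested. Havcr2 had a smaller spread and went in CPM from 1.16 ± 0.517 to 15.5 ± 5.83 in naive and from 21.96 ± 8.23 to 8.04 ± 3.58 in memory cells (5.24 ± 0.67, adjusted p = 0.000147). All 6 genes had a higher mean in old than in young naive libraries and a lower mean in old than in young memory libraries.

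Only 2 genes met the rule in the other direction. Bcl2, which protects lymphocytes from apoptosis, went in CPM from 454 ± 55.5 to 366 ± 25.3 in naive and from 125 ± 21.2 to 326 ± 29.7 in memory cells (log2 difference -1.70 ± 0.22, adjusted p = 0.000147). Its old naive and old memory levels were thus close, while the young ones differed by more than 3 times. Arl4c, a small GTPase of the ARF family, went in CPM from 296 ± 54.6 to 107 ± 20.8 in naive and from 122 ± 26.1 to 118 ± 19.3 in memory cells (-1.41 ± 0.28, adjusted p = 0.00618). Of 26 genes of the naive programme 3 had a lower change in naive than in memory cells, against 0.428% of all genes. These were Lef1, Tcf7 and Bcl2. Lef1, at -2.11 ± 0.53 (adjusted p = 0.0257), had adjusted p-values up to 0.0885 over the fits that left out 1 library.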

How the data were processed

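The values are raw counts of reads per gene from the deposited table of 55484 genes and 170 libraries. The counts were made by the authors with sabre 80faf94, STAR and featureCounts 2.0.1 on GRCm38.p6 (mm10), tools that are named with no order in the submitters' processing notes. Per the labels' protocols the libraries hold 3' ends with a sample index (8 bp) and a molecular identifier (10 bp). The sources used here do not say whether copies were collapsed by identifier. Of the row names 53362 matched GENCODE M21, the 37 mitochondrial rows held 0 counts, and 22 rows carried dates in place of names, with 0.182% of CD4 naive counts.

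Groups came from the sample titles. Genes were filtered with filterByExpr (minimum count 10, minimum total 15), scaled with TMM and tested with edgeR 4.0.16 in R 4.3.3 by the quasi-likelihood test, old against young, with Benjamini-Hochberg adjustment and a threshold of 0.05. CPM used TMM-scaled library sizes, and a standard error is the fold change divided by the square root of F. The age changes of CD4 naive and CD8 naive or CD4 memory cells were compared by an interaction term over both cell types. Promoters came from RefSeq (GRCm38.p6) and covered 617 of the 833 genes that rose, 207 of the 302 that fell and 8260 of the 12019 tested. The script was tested on simulated data.

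The members and gene lists were chosen with earlier results of these data known. Text names the 15 highest and 15 lowest fold changes among genes called in every fit that left out 1 library, with at least 20 CPM and no overlap. It also names the 5 lowest adjusted p-values per direction, up to 8 called and 4 abundant uncalled members per list, 6 interaction genes per direction, Cd4 and Lef1. Some genes that these rules name are not reported here. Alternatives were RLE size factors, no filter, DESeq2 1.42.0, a replicate block, removal of immunoglobulin genes and leaving out each library. Whether the pools came from separate animals is not stated, so the p-values measure the spread between these libraries. Depth ranged from 1754056 to 10439700 counts, which limits the precision of genes under a few CPM. No 2 libraries held identical values.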

Additional observations from a re-analysis of the deposited data

Results flagged for a closer look

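The interaction test of edgeR called 88 genes against CD8 naive cells and 628 against CD4 memory cells. The 20 genes listed here were picked only among those that kept their call when any 1 library was left out. Against CD8 naive cells the log2 difference was 5.91 for Angptl2, 4.76 for Tshz2, 4.51 for Ccdc80, 4.13 for Nt5e, 3.97 for Gpr55 and 3.51 for Cxxc5, all higher in CD4 cells. It was -4.59 for Fasl, -3.66 for Gzma, -3.47 for Arhgap29, -2.84 for Sytl2, -1.95 for Serpina3g and -1.46 for Cd28. Against CD4 memory cells it was 6.09 for Rnd3, 5.93 for Batf3, 5.69 for Napsa, 5.49 for Ptafr, 5.24 for Havcr2 and 5.20 for Cybb, and -1.70 for Bcl2 and -1.41 for Arl4c. These genes are the extremes of each comparison under the naming rule, so their sizes are the largest of many.

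Young replicate 1 stood apart from the other young libraries in its immunoglobulin share, at 0.300%, against 0.260% to 0.261% in the other 3. The gap is small beside the shares of the old libraries. It was the outlier among 41 groups of values examined, and chance gives about 1 such value in 20 groups.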

How the results depend on the processing

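With RLE size factors or without immunoglobulin genes, all 9 counts of called genes stayed within 1.5 times of the values reported. DESeq2 called 534 genes lower with age in place of 302. Against CD8 naive cells it called 154 higher, 50 lower and 204 in all in place of 71, 17 and 88. Against CD4 memory cells it called 167 lower and 953 in all in place of 58 and 628. With no filter on low counts 1650 genes were higher and 1923 were called in all in place of 833 and 1135. The interaction against CD8 then gave 333 higher, 67 lower and 400 in all, and that against memory 914, 93 and 1007.

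Leaving out 1 library gave 556 to 1211 genes higher, 136 to 698 lower and 692 to 1909 in all. The interaction against CD8 gave 27 to 184, 8 to 106 and 35 to 290, and that against memory 252 to 884, 6 to 292 and 258 to 1176. The difference of Cd4, not called in any fit, ran from -0.0337 without old replicate 3 to 0.25 without old replicate 2.

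Same-numbered CD4 naive libraries deviated from their group means with r of -0.0350, 0.00698 and 0.0579, and the best match of a library was often another number. The same-number r ran from -0.0450 to 0.0727 in CD8 naive and from -0.149 to 0.253 in CD4 memory cells. With so few libraries these values cannot decide whether the replicate numbers pair the samples. With the replicate block 551 genes were higher, the CD8 interaction gave 42 higher and 58 in all, and the memory interaction 295, 19 and 314. Cd28 then fell just outside the threshold against CD8 (log2 difference -1.33, adjusted p = 0.0520). The depth of 6 of the 7 libraries, at most 3570312 counts, limits genes at a few CPM.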
